A study of Mus musculus with 18 samples.

Results

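Histones are the proteins around which nuclear DNA is wound, and the genes that encode them were followed here through single-cell RNA profiles of mouse skin. All symbols beginning with Hist1h, Hist2h, Hist3h or Hist4h were taken, together with H2afz, H2afx, H2afv, H2afy, H3f3a, H3f3b and H1f0. This gave 74 of the 32285 genes counted: 7 linker histones, 61 replication-dependent core histones and 6 core variants. At least 1 unique molecular identifier (UMI, a count of 1 captured RNA molecule) was found for 71 of them, and Hist1h4m, Hist1h2bq and Hist1h2ba had none in any cell.

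Every mouse was operated on, with a cut near the tail and a path opened under the skin toward the neck. In the expanded arm a hydrogel expander, which swells under the skin and stretches it, was placed there, and in the control arm none was. Live cells of the whole skin were sorted, on day 1, 2 or 4, and within a sequencing round the mice of an arm were pooled. The 10 RNA libraries form 5 per arm: day 1 rounds 1 and 2, day 2 rounds 1 and 2, and day 4, which has 1 library per arm. Values for the 5 libraries of an arm are given below in that order. The labels used here give no strain, age or sex. Because a library is a pool, a p-value measures the spread between pools and not between single mice.

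The nucleosome core is built from histones H2A, H2B, H3 and H4, and linker histone H1 binds the DNA where it enters and leaves that core. Replication-dependent histone genes lie in clusters and are transcribed mainly while DNA is copied; their messages end in a short stem-loop and normally carry no poly(A) tail. Replication-independent variants such as H2afz, H3f3a, H3f3b and H1f0 are made throughout the cell cycle from ordinary polyadenylated messages. The libraries were primed on poly(A), so the levels below are those of the histone RNA that this priming captured. UMI counts from the 3′ end do not grow with transcript length, and levels are given as CPM, in which the counts of a class in a library are scaled to a common total. Differences between groups are given as log2 ratios with their standard error (±), and an adjusted p comes from edgeR's quasi-likelihood test with Benjamini-Hochberg adjustment over all genes tested. The ratios use edgeR's TMM scaling, so they can differ from the ratio of 2 mean CPM values.

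The stem-loop is shown first because it is the hallmark of replication-dependent histone messages and shows how far an annotated message runs beyond it. Capitals mark the 16 bases of the stem-loop and lower case the bases beside it, written 5′ to 3′ as DNA from the GENCODE M21 transcripts on GRCm38:
Hist1h1c: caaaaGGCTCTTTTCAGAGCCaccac
Hist1h1e: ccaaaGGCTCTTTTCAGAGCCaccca
Hist1h2ap: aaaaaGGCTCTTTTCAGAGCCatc
Hist1h3c: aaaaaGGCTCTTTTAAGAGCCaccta
Hist1h4d: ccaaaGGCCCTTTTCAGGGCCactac
Hist1h4i: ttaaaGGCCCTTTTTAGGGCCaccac
H2afx: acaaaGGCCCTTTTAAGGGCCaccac

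A stem-loop of this form was present in 47 of the 74 members, in 9 distinct sequences, against 62 of 58797 protein-coding transcripts in all (0.105%). One sequence, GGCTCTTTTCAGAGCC, was shared by 26 members, among them the linker genes Hist1h1c, Hist1h1d and Hist1h1e. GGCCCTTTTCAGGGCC was found in 7 members, all encoding H4. Of the 6 core variants, H2afx, whose protein marks DNA breaks when phosphorylated, was the 1 that carried a stem-loop. Its annotated message runs 822 bases further.

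Captured UMIs differed with the annotated end of the message. In 23 replication-dependent genes the annotated transcript stops within 100 bases of the stem-loop, and their median was 124 UMIs over all cells, with 11 of the 23 under 100. For another 23 it runs more than 100 bases past the stem-loop, and their median was 618 UMIs, with 2 under 100. No stem-loop was found in the annotated transcripts of the remaining 21, with a median of 186 UMIs. The 7 genes grouped by name as replication-independent (the 6 variants and H1f0) ranged from 13241 to 942942 UMIs. This group includes H2afx, although its message carries a stem-loop. How the annotated end sets what the counting pipeline could assign was not tested.

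**Figure D1:**
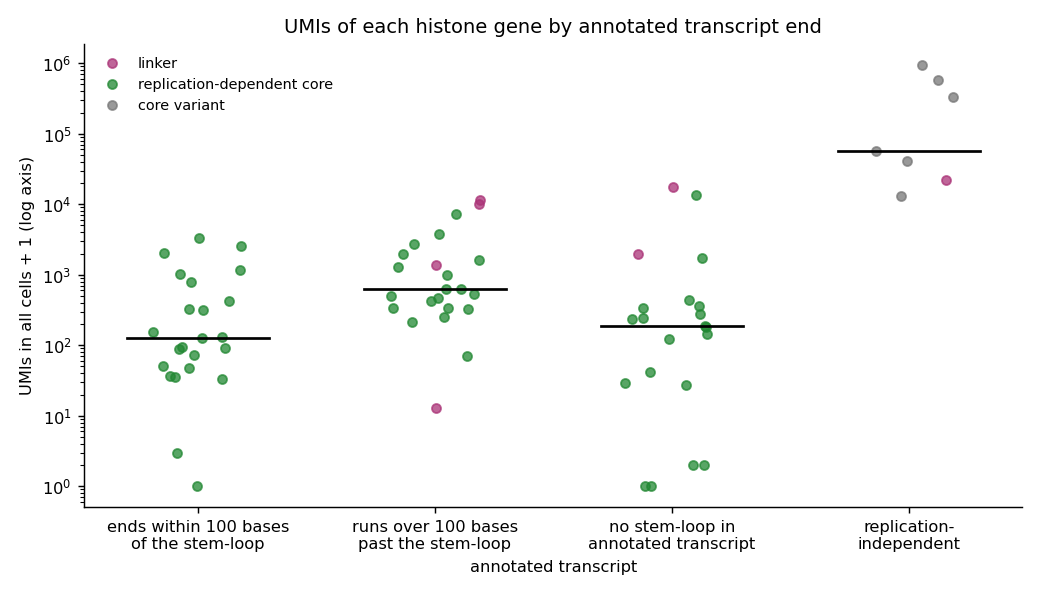
UMIs of each of the 74 histone genes over all cells, plus 1, on a log axis, by where the annotated transcript ends relative to the stem-loop. Points are genes coloured by histone group and black bars are medians. The genes grouped by name as replication-independent, which include the stem-loop gene H2afx, lie at 13241 UMIs or more.

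The core variants made up 94.2% of all histone UMIs, the linker genes 3.12% and the 61 replication-dependent core genes 2.65%. H3f3b and H3f3a, which encode the same replacement H3 protein, gave 45.2% and 27.8% and were seen in 97.2% and 96.1% of cells. H2afz, the variant placed around transcription start sites, gave 15.9% and was seen in 85.3% of cells. The most abundant linker gene was H1f0 (1.07%), a linker form associated with non-dividing and differentiated cells, followed by Hist1h1b (0.851%), Hist1h1e (0.542%) and Hist1h1c (0.491%). Hist1h1b was concentrated in few cells, since 3.38% of cells held all of its UMIs while H1f0 was found in 26.8%. The largest replication-dependent core contributions were Hist1h2bc (0.653%) and Hist1h4d (0.351%), which encode an H2B and an H4.

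On GRCm38, 54 of the replication-dependent genes lie on chromosome 13, 6 of them linker genes. Hist1h1b (ENSMUSG00000058773) is a single-exon gene at chr13:21779883-21780625 on the minus strand. Hist1h1c (ENSMUSG00000036181) is a single exon at chr13:23738808-23740367 on the plus strand, and Hist1h1e (ENSMUSG00000051627) a single exon at chr13:23620629-23622558 on the minus strand. Hist1h2bc (ENSMUSG00000018102) spans 2 exons at chr13:23684199-23692908 on the plus strand, and H1f0 (ENSMUSG00000096210) is a single exon at chr15:79028450-79030504. Annotated exons of Hist1h2be and Hist1h1e overlap by 450 bases on the same strand, and those of Hist3h2a overlap Trim17 by 708 bases, so reads there can be uncertain. Many core genes also have nearly identical coding sequences, and the split of reads among such copies is likewise uncertain.

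The upstream sequences of a pair of linker genes that behaved differently in dividing cells (below) show motifs in common. These are the 250 bases before the RefSeq start (GRCm38.p6), 5′ to 3′ on the gene's own strand, with capitals on the CCAAT box, on the TATAAA element and on the AAACACA box, each searched on both strands. Hist1h1b (RefSeq H1f5) is at chr13:21780626-21780875, minus strand, and Hist1h1c (RefSeq H1f2) at chr13:23738557-23738806, plus strand:
Hist1h1b: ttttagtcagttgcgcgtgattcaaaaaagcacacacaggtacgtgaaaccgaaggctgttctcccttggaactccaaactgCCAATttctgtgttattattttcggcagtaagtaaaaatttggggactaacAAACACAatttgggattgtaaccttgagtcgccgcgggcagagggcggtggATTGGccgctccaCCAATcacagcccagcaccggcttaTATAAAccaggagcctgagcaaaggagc
Hist1h1c: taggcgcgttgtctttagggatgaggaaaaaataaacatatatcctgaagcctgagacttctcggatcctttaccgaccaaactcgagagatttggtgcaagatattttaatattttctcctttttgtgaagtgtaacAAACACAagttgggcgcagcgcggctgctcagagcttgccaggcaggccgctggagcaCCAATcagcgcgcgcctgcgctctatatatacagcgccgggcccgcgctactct

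AAACACA, a box described in linker histone promoters, began 117 bases before the start of Hist1h1b, 112 before Hist1h1c, 115 before Hist1h1e and 122 before Hist1h1d. The box was found in 5 of 7 linker windows, against 4 of 55 replication-dependent core windows and 6.22% of the 27025 windows in the table. CCAAT was in 6 of 7 linker and 44 of 55 replication-dependent core windows (34.5% of all windows). TATAAA was in 4 of 7 and 25 of 55 (13.0% of all). It lay 28 bases before the start of Hist1h1b, and this exact string was not found in the window of Hist1h1c. Only exact strings were searched, and the window of Hist1h1c holds tatatata, in lower case, near its end. H1f0 held none of the 3 motifs in its window. That window ends at chr15:79028211, before the GENCODE start given above, so it does not hold the bases directly before that start. In all, 67 of the 74 members were matched to this table, and a match of letters is a description of the window only.

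After filtering, 44805 cells remained, 27926 control and 16879 expanded, with 17726739 to 75470722 gene UMIs per library and median depths of 6298 to 12678 UMIs per cell. The libraries lost 8.60% to 24.4% of barcodes to the limit on mitochondrial UMIs, and the 2 highest losses were the expanded libraries of day 2 round 2 and day 4. Clusters were named for 17 cell classes from marker genes, and 10 classes had enough cells for tests. Pairs of libraries shared at most 0.338% of their cell barcodes.

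Among the classes, linker histone RNA was highest in the natural killer (NK) or innate lymphoid class, in basal keratinocytes and in T cells. The summed level of the 7 linker genes was 674 ± 313 CPM in NK or innate lymphoid cells, 399 ± 158 in basal keratinocytes and 362 ± 236 in T cells (SD, n = 10 libraries each). It was 61.2 ± 24.3 in macrophages or monocytes (n = 10) and 50.2 ± 26.8 in neutrophils (n = 8). The first 3 classes do not separate from one another beyond their spread. Replication-dependent core RNA was also highest in these 3 classes, at 413 ± 155, 321 ± 112 and 293 ± 120 CPM, and it was 74.8 ± 24.5 in fibroblasts.

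Core variants followed another order. Their sum was 8739 ± 1803 CPM in mast cells (n = 8), 7236 ± 884 in neutrophils (n = 8), 6883 ± 953 in dendritic or Langerhans cells and 3160 ± 569 in fibroblasts (n = 10 each). H2afz led in mast cells (3110 CPM) and in dendritic or Langerhans cells (2557), while fibroblasts had 364. H3f3a was highest in neutrophils, at 2844 CPM, where H2afv (27.2 CPM), whose protein is closely related to that of H2afz, was at its lowest.

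**Figure D2:**
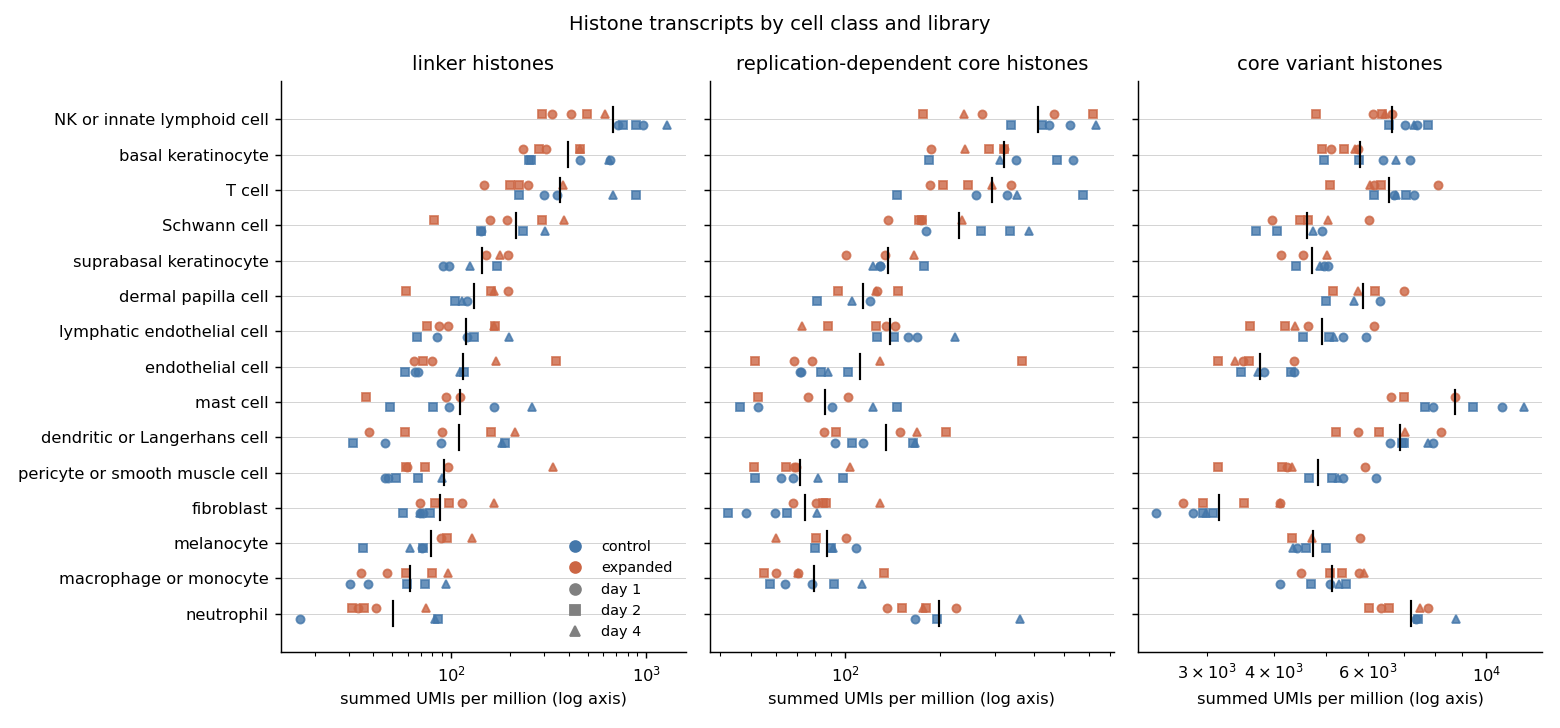
Summed CPM of the linker, replication-dependent core and core variant histones, on log axes, in each cell class seen in 7 or more libraries. Points are libraries, coloured by arm and shaped by day, and black ticks are means. NK or innate lymphoid cells, basal keratinocytes and T cells lead the linker panel.

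Single members departed from their group. Hist1h2bc, which encodes an H2B, had its highest mean in Schwann cells (114 CPM) and neutrophils (89.5), both classes in which the stricter phase lists described next called fewer than 1% of cells in S phase. Its level in T cells was 16.1 CPM. Hist1h2be and Hist1h4i were highest in neutrophils, at 43.4 and 21.9 CPM, and the neutrophil level of Hist1h1e, whose exon overlaps Hist1h2be, was 3.35. H1f0 was highest in Schwann cells, at 107 CPM, and lowest in neutrophils, at 4.39. Hist1h1c and Hist1h1e peaked in NK or innate lymphoid cells, at 187 and 235 CPM, against 14.1 and 14.7 in fibroblasts. Hist1h1b was 186 CPM in basal keratinocytes, 149 in NK or innate lymphoid cells, 148 in T cells and 3.50 in fibroblasts.

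Cells were placed in S phase, in G2M or in neither (the rest) from genes of DNA replication and of mitosis, none of them a histone. Each cell was first thinned to 2000 UMIs, and 3 UMIs of a list were required. A cell reaching this was S if its S list had at least as many UMIs as its G2M list, and otherwise G2M. Cells called G2M can thus also hold S-list UMIs, and the calls do not part the phases cleanly. With the full lists this placed 54.7% of basal keratinocytes and 37.8% of neutrophils in G2M, and mature neutrophils are not known to divide. Shorter lists of replication and mitosis genes, chosen after these shares were seen, gave 6.09% in S and 8.35% in G2M for basal keratinocytes, 2.35% and 3.61% for T cells, and 0.0926% and 0.370% for neutrophils. Both versions are given below, the shorter as the core lists.

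In basal keratinocytes, linker and replication-dependent core RNA were higher in cells called S than in the rest, and higher again in cells called G2M. With the core lists, over the 9 libraries with at least 10 cells per phase, the linker sum was 168 ± 43 CPM in the rest, 752 ± 431 in S and 1286 ± 358 in G2M. It was higher in S than in the rest in 9 of 9 libraries, and higher in G2M than in S in 8 of 9. The replication-dependent core sum went from 152 ± 27 to 528 ± 441 and 962 ± 546 CPM, higher in G2M than in the rest in 9 of 9 libraries. Variants moved less in proportion, from 5184 ± 551 to 6337 ± 1584 and 8171 ± 1201 CPM. These sums rest on 261 S, 355 G2M and 3681 other cells. Median depths were 19470, 19950 and, over the rest, 10940 UMIs; the part of depth in the difference was not tested.

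The linker genes did not move as 1 set. Hist1h1b went from 14.9 ± 11.9 CPM in the rest to 513 ± 349 in S and 767 ± 304 in G2M. Against the rest it differed by a log2 ratio of 4.92 ± 0.30 in S (edgeR adjusted p = 2.996e-09) and of 5.80 ± 0.26 in G2M (adjusted p = 1.26e-10), and its levels in the rest, up to 36.1 CPM, stayed below every S library (lowest 63.0). Hist1h1a, Hist1h1d and Hist1h1e rose in both phases too, by 3.39, 1.91 and 1.195 in S and by 4.40, 3.20 and 2.55 in G2M on the log2 scale. Hist1h1c was 34.0 ± 13.2 CPM in the rest and 33.8 ± 20.1 in S, where it was higher in 4 of 9 libraries, and it reached 76.0 ± 15.9 in G2M (log2 ratio 1.08 ± 0.17, edgeR adjusted p = 0.000112). H1f0 fell in S, from 77.5 ± 33.2 to 51.4 ± 13.3 CPM and in 9 of 9 libraries (log2 ratio -0.64 ± 0.11, edgeR adjusted p = 0.000321). In G2M it was 121 ± 38 CPM, higher than in the rest in 8 of 9 libraries (log2 ratio 0.59 ± 0.12, adjusted p = 0.0013).

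Core genes split likewise. Hist1h3c, encoding H3, was 1.285 ± 1.119 CPM in the rest, 38.0 ± 24.1 in S and 63.3 ± 28.8 in G2M. The H2A genes Hist1h2ab and Hist1h2af had 9 and 4 UMIs in all cells of the rest and 49 and 31 in S, so they entered the test through the dividing cells and the size of their ratios is not given. Hist1h2ap, another H2A gene, went from 4.81 ± 6.87 CPM in the rest to 96.5 ± 160 in S and 179 ± 287 in G2M. The day 1 round 1 pair carried much of these means. In G2M its control and expanded libraries held 438 and 856 CPM, against at most 137 elsewhere. In S they held 478 and 226 CPM, against at most 73.4 elsewhere. Hist1h2bc instead fell in S, from 57.5 ± 23.3 to 34.6 ± 12.6 CPM (log2 ratio -0.84 ± 0.18, edgeR adjusted p = 0.00204), and so did the H2A gene Hist3h2a (log2 ratio -1.02 ± 0.24). In G2M Hist1h2bc was 65.8 ± 24.7 CPM, above the rest in 4 of 9 libraries, and it was not among the genes called. H2afz was 553 ± 111 CPM in the rest, 1513 ± 358 in S and 2210 ± 244 in G2M, and H2afx was 32.7 ± 5.2, 75.1 ± 24.0 and 154 ± 38. Both were called in each phase. H3f3a was not, at 1424 ± 85, 1564 ± 348 and 1581 ± 358 CPM.

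**Figure D3:**
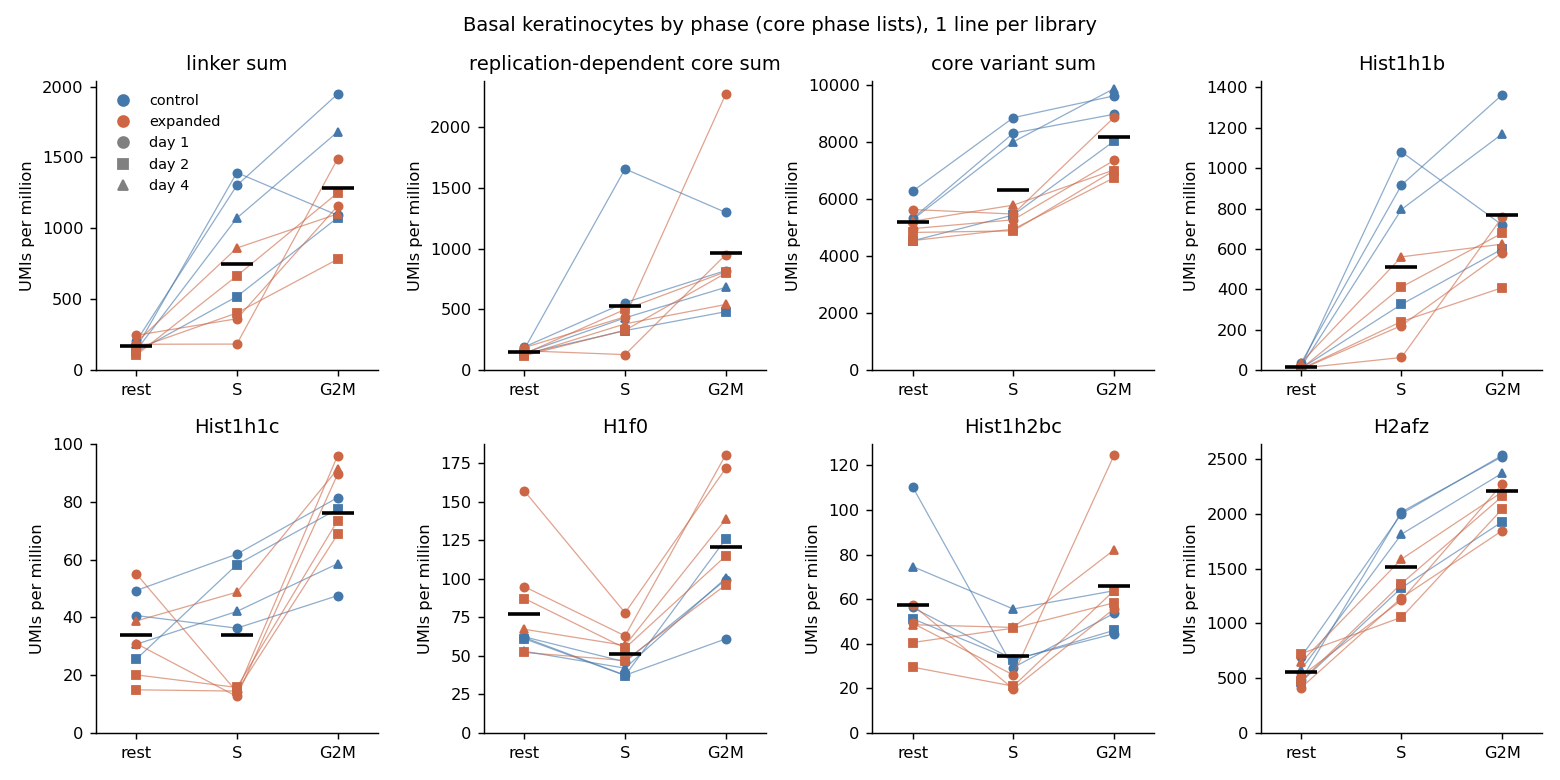
CPM in basal keratinocytes outside S and G2M (rest), in S and in G2M, by the core phase lists. Each line is 1 of 9 libraries, coloured by arm and shaped by day, and black bars are means. Hist1h1b rises from the rest to S and G2M, whereas H1f0 and Hist1h2bc are lowest in S.

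Counted over all members, 35 of 74 could be tested in S with the core lists, and 24 were higher and 3 lower, beside 33.8% of all genes called in either direction. In G2M 49 could be tested and 45 were higher and none lower, beside 38.1% of all genes. Many of these passed the low-count filter only through their level in the dividing cells and so had to differ. Of the 20 that had 10 or more UMIs in the rest of at least 5 libraries, 13 were higher and 3 lower in S, and 17 higher and 0 lower in G2M. The full lists gave 14 higher and 1 lower among 24 tested in S, beside 27.7% of all genes.

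T cells had too few S cells for a test with the core lists. In G2M (81 cells in 4 libraries) the linker sum was 1710 ± 684 CPM against 123 ± 19 in the rest, and the replication-dependent core sum was 1155 ± 386 against 103 ± 17, both without overlap. Hist1h1b led the named linker genes, with 1026 ± 598 CPM against 4.29 ± 2.90. It did not reach 10 UMIs in the rest of at least 2 libraries, so the size of its ratio is not given. Hist1h1c was 117 ± 45 CPM against 41.5 ± 10.1 (log2 ratio 1.42 ± 0.30, edgeR adjusted p = 0.00331). H1f0, at 36.1 ± 26.5 against 33.0 ± 7.6 CPM, was higher in 2 of 4 libraries. In all 24 members were tested and 20 were higher, beside 20.9% of all genes, and of the 12 with 10 or more UMIs in the rest of at least 2 libraries, 8 were higher and 0 lower.

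With the full lists, other classes showed less in S. Dendritic or Langerhans cells had 7 of 17 tested members higher and Hist1h2bc lower, by 1.44 on the log2 scale, beside 6.48% of all genes. Fibroblasts had H2afz higher (log2 ratio 0.31, 1 of 18 tested, beside 5.7% of all genes) and macrophages or monocytes had H3f3a lower (-0.29, 1 of 13, beside 2.64%). By edgeR's quasi-likelihood test, and by DESeq2, 0 members were called in T cells (11 tested, beside 1.9% of all genes, 2 with an unadjusted p under 0.05), endothelial cells (9 tested, beside 0.653%, 1 such p) and lymphatic endothelial cells (6 tested, beside 0.109%, 1 such p). The full lists also placed many cells in a phase that the core lists did not, so these S cells are a broader set.

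Genes that handle histone RNA and protein were counted in the same cells, from lists chosen with earlier results known. A list of 12 genes of histone transcription and message processing had 6 of 10 tested members higher and none lower in S by the core lists, with a median log2 ratio of 0.58 against -0.08 over all genes, beside 33.8% of all genes called in either direction. E2f1, a transcription factor of S-phase genes, rose by 2.76, Eri1, a nuclease that acts on the stem-loop, by 0.87, and Slbp, the stem-loop binding protein, by 0.70. Of 22 histone chaperone and exchange genes, 13 of 21 tested were higher and 0 lower in S, beside the same 33.8%. The chaperone Asf1b rose by 3.77, and Chaf1b and Chaf1a, subunits of the assembly factor that loads histones behind the replication fork, rose by 2.79 and 2.35. In G2M the counts were 6 of 10 higher and 13 of 21 higher with 1 lower, beside 38.1% of all genes. In T cells in G2M they were 3 of 9 and 8 of 18 higher, beside 20.9%.

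Expansion was compared with control in 10 classes, with day as a covariate. The share of all genes called ran from 0.228% in Schwann cells to 31.4% in fibroblasts and is given beside each class below. In all, 17 of the 224 tests of a member had an edgeR adjusted p under 0.05, 7 higher and 10 lower. With each pair of libraries of the same day and round as a block (the replicate block), 31 did, among the members tested in that fit. The count was 8 without the control or the expanded library of day 4, 11 without the expanded library of day 2 round 2 and 28 without the control library of day 2 round 2. These totals have no share of all genes beside them. The same holds for calls below with the block or, between arms, with the core phase lists. The values below are from the fit without the block unless stated.

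In the NK or innate lymphoid class 3 of 18 tested members were lower and 0 higher, beside 0.597% of all genes called. Hist1h1c was 310, 469, 213, 180 and 204 CPM in the control libraries and 113, 126, 83.2, 70.6 and 105 in the expanded ones. Every expanded library lay below every control library. The log2 ratio was -1.55 ± 0.19 (edgeR adjusted p = 0.00121), and it kept its call under 15 of 15 alternatives. Hist1h2bc was 72.8, 137, 33.3, 31.0 and 50.3 CPM in control and 10.8, 9.91, 11.4, 19.3 and 4.05 in expanded libraries, again without overlap (log2 ratio -2.94 ± 0.38, edgeR adjusted p = 0.00167, kept under 13 of 13 alternatives). Hist1h1e was 194, 277, 333, 307 and 444 CPM in control and 115, 144, 148, 186 and 202 in expanded libraries. Here the arms overlap, since the lowest control library is below the highest expanded one, but all 5 pairs were lower (-1.06 ± 0.16, edgeR adjusted p = 0.00812, kept under 15 of 15 alternatives).

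The linker sum of this class was 922 ± 224 CPM in control and 427 ± 130 in expanded libraries (n = 5 each), and all 5 pairs were lower. Replication-dependent core genes summed to 473 ± 110 and 354 ± 181 CPM, with 2 of 5 pairs higher. The variant H3f3b was lower in 5 of 5 pairs, with a log2 ratio of -0.56 and an edgeR adjusted p of 0.0628, or 0.00847 with the replicate block. Too few cells remained for a test outside S and G2M by the full lists. By the core lists Hist1h1c, Hist1h2bc and Hist1h1e were lower there too, with log2 ratios of -1.502, -3.07 and -1.13 (edgeR adjusted p = 0.0236, 0.00352 and 0.0401).

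The class is a single cluster of 679 cells, so its makeup could differ between arms within it. Of the 9 genes of its marker list 4 had a higher mean in expanded skin, and the list summed to 1769 to 2547 CPM in control and 1488 to 2474 in expanded libraries. T cell markers reached a similar sum in this class, 1322 to 2974 CPM in control and 1559 to 2203 in expanded libraries. Of these, 6 of 7 genes had a higher mean in expanded skin. Areg, which innate lymphoid cells secrete, was 589 ± 149 CPM in control and 253 ± 104 in expanded libraries, while Gata3, a transcription factor of type 2 lymphoid cells, was 150 ± 32 and 135 ± 55, Il13 16.7 ± 12.3 and 15.2 ± 18.3, and Il1rl1 1.59 ± 1.12 and 1.28 ± 2.87. Among genes of NK cells, Gzma, a granule protease, was 73.6 ± 91.4 and 338 ± 357 CPM and Klrb1c 55.8 ± 23.1 and 106 ± 36, while Ncr1 was 92.7 ± 32.7 and 94.6 ± 39.4, Nkg7 1156 ± 142 and 1016 ± 218, and Eomes 41.4 ± 26.0 and 62.6 ± 76.2. Each innate lymphoid gene named here thus had a lower mean in expanded skin, and the 4 genes with a higher mean were all NK genes, with Nkg7 lower. The differences in Gata3, Il13, Il1rl1, Ncr1, Nkg7 and Eomes were within their SD. That in Gzma was beyond the control SD but within the expanded SD. The summed fibroblast markers were 370 to 2123 CPM in control and 19.3 to 1947 in expanded libraries, with 1 of 7 genes higher in expanded skin, and the dendritic cell markers 342 to 1883 and 203 to 490, with 3 of 9 higher. The part of subset makeup or of RNA from other cells in these differences was not tested.

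T cells had 1 of 26 tested members called, beside 0.723% of all genes. It was Hist1h1c, at 119, 135, 122, 47.7 and 63.8 CPM in control and 43.3, 38.6, 20.9, 33.1 and 46.7 in expanded libraries. The arms do not overlap, but the lowest control and the highest expanded library are close. The log2 ratio was -1.48 ± 0.27 (edgeR adjusted p = 0.0334). Its call held in 10 of 16 alternatives and was lost, with adjusted p up to 0.108, on thinning and without the control libraries of day 1 round 1, day 1 round 2 or day 2 round 1 or the expanded library of either day 2 round. Over mice told apart by hashtag the edgeR adjusted p was 0.00476. The mice of a pool share 1 library and so are not independent units there, and the libraries of day 1 round 1 hold no hashtags. Outside S and G2M by the full lists Hist1h1c fell by 2.04 ± 0.29 on the log2 scale (edgeR adjusted p = 0.00366, kept under 13 of 13 alternatives), the 1 member called there, beside 0.297% of all genes.

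Within the T cell class the difference was seen in 2 of its 4 clusters. Hist1h1c was 73.6 CPM in control and 20.4 in expanded libraries in the largest cluster and 151 against 58.8 in the next. In the others it was 25.9 against 20.9 and 39.2 against 66.3. Fibroblast markers summed to 521 to 1990 CPM in the control and 32.2 to 240 in the expanded T cell libraries, with 0 of 7 genes higher in expanded skin. Dendritic cell markers moved the other way in their means, at 290 to 934 CPM in control and 187 to 5828 in expanded libraries with 7 of 9 genes higher, as did macrophage or monocyte markers, at 237 to 384 and 232 to 1535 with 10 of 10 higher. The part of these in the result was not tested.

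**Figure D4:**
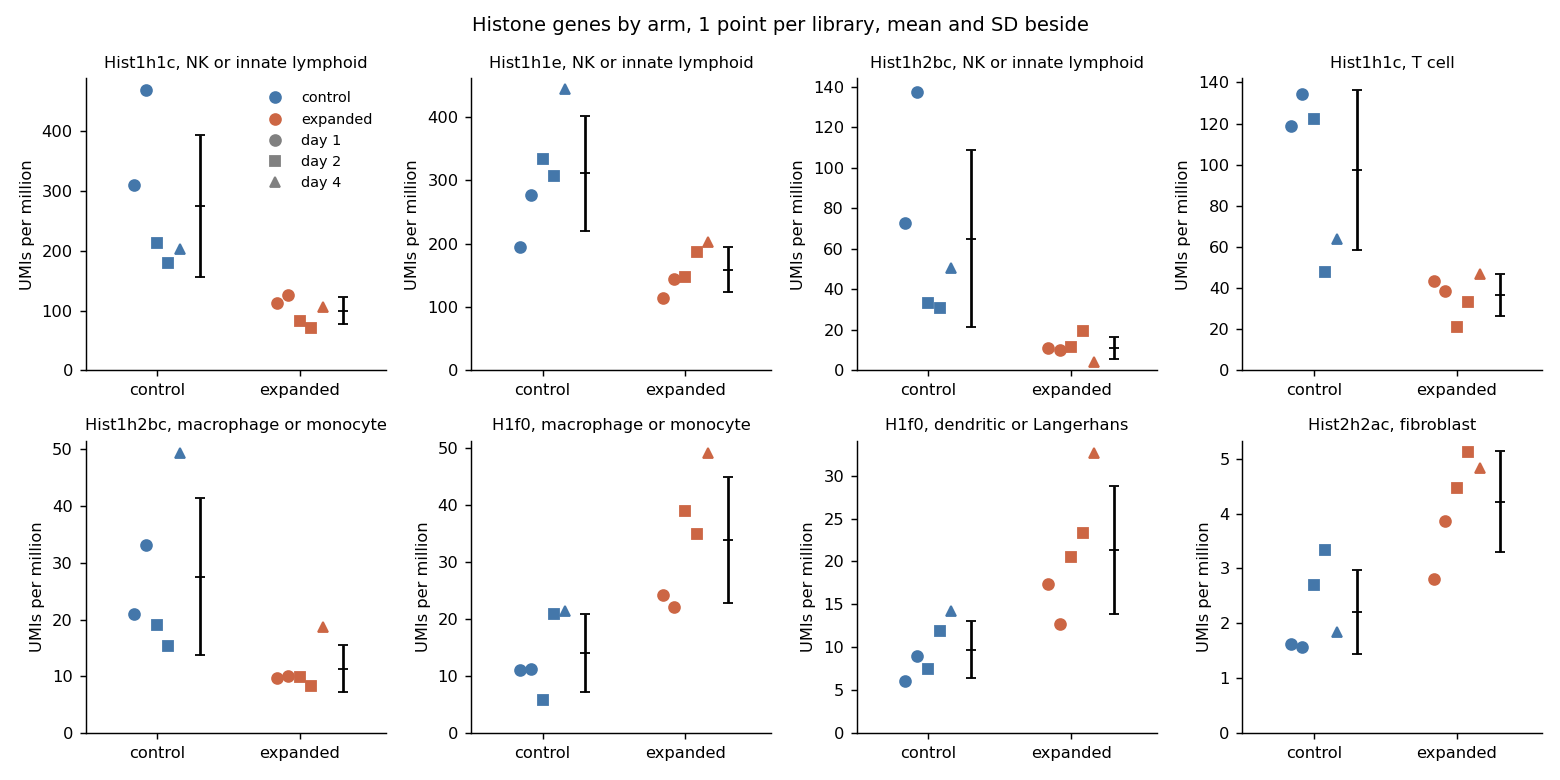
CPM of named histone genes in 1 cell class per panel, by arm. Points are libraries shaped by day, and bars beside them are means with SD (n = 5). Expanded libraries lie below all control libraries for Hist1h1c and Hist1h2bc in NK or innate lymphoid cells and above them for H1f0 in macrophages or monocytes.

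H1f0 went the other way and was called in macrophages or monocytes and in dendritic or Langerhans cells. Without an edgeR call, it was also higher in every pair in endothelial cells, at 40.6 ± 14.9 CPM in control and 68.0 ± 31.5 in expanded libraries (SD, n = 5 each). The same held in pericytes or smooth muscle cells, at 30.2 ± 10.5 and 56.7 ± 22.4 CPM. In NK or innate lymphoid cells its mean was lower, at 41.7 ± 15.7 and 21.2 ± 12.1 CPM. In macrophages or monocytes it was 11.0, 11.2, 5.69, 20.9 and 21.4 CPM in control and 24.2, 22.2, 39.0, 34.9 and 49.0 in expanded libraries. All expanded libraries lay above all control libraries (log2 ratio 1.11 ± 0.23, edgeR adjusted p = 0.00878, kept under 16 of 16 alternatives). In dendritic or Langerhans cells it was 6.08, 8.95, 7.46, 11.9 and 14.2 CPM in control and 17.4, 12.7, 20.5, 23.3 and 32.7 in expanded libraries. There the arms overlap between 12.7 and 14.2, and 5 of 5 pairs were higher (0.86 ± 0.18, edgeR adjusted p = 0.0094, or 0.156 when cells were thinned to 2000 UMIs). Outside S and G2M by the full lists the log2 ratios were 1.03 ± 0.23 in macrophages or monocytes and 1.03 ± 0.24 in dendritic or Langerhans cells, both called by edgeR (adjusted p = 0.0113 and 0.0133). Both calls were lost without the control or the expanded library of day 4, with adjusted p up to 0.0527 and 0.0701.

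The dendritic or Langerhans class also changed makeup without overlap between arms. The cluster led by Mmp12 and Lyz1 made up 80.7% to 85.7% of it in control and 51.3% to 65.5% in expanded libraries, and the cluster led by Cd207 and Ccl22 14.3% to 19.3% and 34.5% to 48.7%. Mean H1f0 was higher in expanded libraries within each, at 8.99 against 18.9 CPM in the first and 13.2 against 26.2 in the other, and within an arm it was higher in the cluster that gained share. Fibroblast markers summed to 301 to 1583 CPM in control and 32.7 to 262 in expanded libraries of this class, with 0 of 7 genes higher, and their part in the result was not tested.

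Macrophages or monocytes had 5 of 25 members called, 2 higher and 3 lower, beside 21.9% of all genes, a share close to the background. Hist1h2bc was 21.0, 33.2, 19.0, 15.4 and 49.4 CPM in control and 9.77, 10.1, 9.89, 8.32 and 18.7 in expanded libraries, overlapping through the day 4 expanded library (log2 ratio -1.31 ± 0.20, edgeR adjusted p = 0.0032, or 0.137 on thinning). Hist1h1c (log2 ratio -0.68 ± 0.19), H2afv (-0.58 ± 0.16) and the H2A gene Hist2h2aa1 (1.27 ± 0.41) had edgeR adjusted p of 0.0275, 0.0264 and 0.0487. Each of these calls depended on single libraries. That of Hist1h1c was lost without any 1 control library but that of day 2 round 1, or without the expanded library of either day 2 round or of day 4, on thinning (adjusted p = 0.364) and over mice told apart by hashtag (adjusted p = 0.0981). H2afv lost its call without either day 1 or the day 4 control library, or without the expanded library of day 1 round 2, day 2 round 2 or day 4 (up to 0.0997). Hist2h2aa1 lost it without any 1 control library or the expanded library of day 1 round 1, day 2 round 2 or day 4 (up to 0.115). With the replicate block H2afz was also lower and H3f3a higher (log2 ratio -0.34 and 0.41, adjusted p = 0.0478 and 0.0259). By the core lists 6 members were called in cells outside S and G2M, a count with no share of all genes beside it. By the full lists 3 of the 5 were called there, Hist1h2bc, H1f0 and Hist2h2aa1, beside 19.8% of all genes. The call of Hist2h2aa1 there was lost without any of 6 single libraries (control day 1 round 2, both control libraries of day 2, control day 4, expanded day 2 round 1 and expanded day 4; adjusted p up to 0.105).

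This class changed makeup between arms. The cluster marked by Chil3 and Ly6c2 made up 11.5% ± 13.4 of the class in control and 77.4% ± 21.7 in expanded libraries, and the cluster marked by Folr2 and Cd209f 56.5% ± 26.1 and 10.5% ± 17.0 (SD, n = 5). Within the first, Hist1h2bc was 9.83 CPM in control and 10.2 in expanded libraries. In the other it was 43.3 (5 libraries) and 13.1 (2 libraries). H1f0 was higher in expanded libraries in each of the 3 clusters, at 12.6 against 35.2, 12.6 against 19.5 and 15.5 against 31.1 CPM. Fibroblast markers summed to 319 to 2247 CPM in control and 40.0 to 1064 in expanded libraries of the class, with 0 of 7 genes higher, and neutrophil markers to 67.0 to 142 and 436 to 1866, with 4 of 7 higher. The part of these in the calls was not tested.

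Basal keratinocytes had 2 of 45 members lower and 0 higher, beside 9.02% of all genes. H2afv was 171, 191, 206, 173 and 248 CPM in control and 118, 105, 132, 107 and 169 in expanded libraries, without overlap between the lowest control and the highest expanded value (log2 ratio -0.67 ± 0.11, edgeR adjusted p = 0.0058). The call was lost on thinning to 2000 UMIs (adjusted p = 0.0899) and when cells were clustered with histone and cycle genes kept. Hist3h2ba, an H2B gene, was 7.40, 4.88, 0, 1.14 and 5.31 CPM in control and 1.86, 1.66, 0, 0.435 and 0.842 in expanded libraries (-2.07 ± 0.38, adjusted p = 0.0102). Without either day 4 library its adjusted p reached 0.0592. With the replicate block H3f3a, Hist1h2bc and Hist1h1a were also lower (log2 ratio -0.27, -0.51 and -1.08, edgeR adjusted p = 0.038, 0.0406 and 0.0329). Outside S and G2M by the full lists 0 of 17 members were called by edgeR or DESeq2, beside 1.88% of all genes (2 with an unadjusted edgeR p under 0.05). By the core lists Hist1h2bc was lower there (log2 ratio -0.73, edgeR adjusted p = 0.0413).

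Fibroblasts, the most changed class, had 3 of 33 members higher and 0 lower, beside 31.4% of all genes. The macroH2A gene H2afy was 55.3, 64.3, 58.5, 70.7 and 62.6 CPM in control and 92.3, 76.5, 83.1, 86.6 and 89.5 in expanded libraries, without overlap (log2 ratio 0.28 ± 0.10, edgeR adjusted p = 0.0408), but its call was lost in 11 of 15 alternatives (adjusted p up to 0.544), among them the removal of any 1 library except the control of day 2 round 2 and the expanded of day 1 round 2. Hist2h2ac, an H2A gene, rose from 2.21 ± 0.77 to 4.22 ± 0.92 CPM (0.78 ± 0.22, adjusted p = 0.0193), and Hist1h3a, an H3 gene, from 0.321 ± 0.131 to 1.67 ± 1.30 (1.86 ± 0.55, adjusted p = 0.0244). Both lost their calls without either day 4 library, Hist2h2ac also without the expanded library of day 1 round 2 and Hist1h3a without that of day 2 round 2, with adjusted p up to 0.105 and 0.132. Summed linker RNA was 69.1 ± 7.7 CPM in control and 106 ± 38 in expanded fibroblasts and replication-dependent core RNA 59.5 ± 15.3 and 90.0 ± 23.1, each higher in 5 of 5 pairs. With the replicate block Hist1h1e was higher too (log2 ratio 0.60, edgeR adjusted p = 0.0447). In fibroblasts outside S and G2M by the full lists 0 of 22 members were called by edgeR, beside 30.5% of all genes (4 with an unadjusted p under 0.05), and DESeq2 called 1. By the core lists Hist2h2ac was higher (0.67, edgeR adjusted p = 0.0495).

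Fibroblast clusters exchanged between arms. The cluster led by B830012L14Rik and Mirg went from 38.5% ± 10.6 of the class in control to 4.57% ± 5.79 in expanded libraries, that led by Grem1 and Mmp3 from 14.8% ± 3.9 to 41.2% ± 13.6, and that led by Cadps and Mme from 4.75% ± 1.17 to 19.0% ± 5.7 (SD, n = 5). Fibroblasts called in S by the full lists made up 2.05% ± 0.21 and 5.15% ± 1.82, or 0.175% ± 0.137 and 0.952% ± 0.631 by the core lists. Within the Grem1 cluster mean H2afy was 62.8 CPM in control and 96.9 in expanded libraries, the linker sum 75.8 and 116, and the replication-dependent core sum 64.0 and 99.3. Within the Cadps cluster these were 72.7 and 71.7, 90.2 and 94.4, and 111 and 90.7, so the core sum was there lower in the expanded mean. Another cluster, seen in 5 control and 4 expanded libraries, had 64.7 and 68.0, 110 and 134, and 141 and 89.6. In the remaining clusters with libraries of both arms the core sum was higher in the expanded mean. Hist2h2ac was higher in the expanded mean in 4 of the 5 clusters with libraries of both arms and Hist1h3a in 5 of 5. The B830012L14Rik cluster counts here with 1 expanded library. The part of makeup and of dividing cells in the fibroblast differences was not tested.

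In lymphatic endothelial cells 2 of 11 members were called, beside 10.4% of all genes. H2afy was 84.5, 57.9, 57.3, 101 and 106 CPM in control and 120, 112, 157, 148 and 179 in expanded libraries, without overlap (log2 ratio 0.67 ± 0.17, edgeR adjusted p = 0.019). Hist1h2bc was 33.8, 45.8, 57.3, 15.7 and 120 CPM in control and 9.24, 18.2, 19.4, 18.3 and 21.4 in expanded libraries, where the control library of day 2 round 2 lies among the expanded ones (-1.46 ± 0.36, adjusted p = 0.0147). Both calls were lost without the control or the expanded library of day 4, and that of H2afy also without the control library of day 1 round 2, with adjusted p up to 0.129 for H2afy and 0.194 for Hist1h2bc. Among cells outside S and G2M by the full lists 0 of 9 members were called by edgeR or DESeq2, beside 6% of all genes (3 with an unadjusted edgeR p under 0.05). By the core lists H2afy was higher there (log2 ratio 0.71) and Hist1h2bc and Hist1h1c were lower (-1.51 and -0.99; edgeR adjusted p = 0.016, 0.013 and 0.034).

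The other classes showed little. Dendritic or Langerhans cells had H1f0 alone of 25 tested, beside 18.5% of all genes, and alone again outside S and G2M, beside 17.4%. With the replicate block H2afz, H3f3a and H3f3b were also lower there (log2 ratio -0.51, -0.33 and -0.42, edgeR adjusted p = 0.00921, 0.038 and 0.0325). By edgeR 0 of 19 members were called in endothelial cells, beside 12.6% of all genes, with 7 unadjusted p under 0.05 and 1 call by DESeq2. In pericytes or smooth muscle cells edgeR called 0 of 9, beside 15.8%, with 3 such p and 1 DESeq2 call, and in Schwann cells 0 of 13, beside 0.228%, with 2 such p and 0 DESeq2 calls. With the replicate block H3f3b was lower in endothelial cells and in pericytes or smooth muscle cells (-0.45 and -0.52, edgeR adjusted p = 0.00944 and 0.0268). In endothelial cells Hist1h2bc was then lower (-0.95, adjusted p = 0.0483) and the H3 gene Hist1h3c higher (2.46, adjusted p = 0.0106). Hist1h3c there was 0, 0.39, 0, 4.75 and 3.33 CPM in control and 0, 0.471, 0, 51.6 and 13.5 in expanded libraries, so it was near 0 on day 1 and in day 2 round 1, and the expanded library of day 2 round 2 was the highest. Cells outside S and G2M gave 0 calls by edgeR or DESeq2 in endothelial cells (11 tested, beside 5.09% of all genes, 5 unadjusted edgeR p under 0.05) and in pericytes or smooth muscle cells (9 tested, beside 8.28%, 2 such p).

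Of the processing list at most 1 gene was called per class with expansion. Gon4l was higher in dendritic or Langerhans cells (log2 ratio 0.65, beside 18.5% of all genes called) and Cpsf2 in fibroblasts (0.41, beside 31.4%). E2f1 was lower in macrophages or monocytes (-0.71, beside 21.9%). The other 7 classes had 0 of 5 to 10 tested, beside 0.228% to 15.8% of all genes. The chaperone list had 10 of 22 members higher and 1 lower in fibroblasts, beside 31.4% of all genes called, with a median log2 ratio of 0.35 against 0.02 over all genes. Chaf1b rose by 1.67 there, Set, an inhibitor of histone acetylation, by 0.75, and Anp32e, which removes H2afz protein from nucleosomes, by 0.50. In macrophages or monocytes, where 21.9% of all genes were called, Daxx, a chaperone of the replacement H3, rose by 1.11 and Atrx, its partner, fell by 0.51.

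Across days 1, 2 and 4, 1 of 224 member tests was called, Hist1h1c in NK or innate lymphoid cells (edgeR adjusted p = 0.0476), beside 1.95% of all genes in that class. Its day 1 libraries were the highest of their arm in both arms. An unadjusted p under 0.05 was reached in 29.5% of the member tests and 14.95% of all gene tests, and day 4 rests on 1 library per arm.

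Whether the effect of expansion differed between days was tested directly, and 1 of 269 member tests was called, Hist1h1b in basal keratinocytes (edgeR adjusted p = 0.039), beside 0.124% of all genes in that class. Its level was 249 and 382 CPM in control and 51.8 and 42.8 in expanded libraries on day 1, 100 and 96.6 against 220 and 100 on day 2, and 402 against 215 on day 4. The share of basal keratinocytes in G2M by the core lists was 13.3% and 12.2% in control and 3.55% and 2.58% in expanded libraries on day 1. On day 2 it was 15.4% and 7.07% against 19.0% and 9.24%, and on day 4 14.7% against 15.1%. H2afz moved alike on day 1, at 1070 and 1178 CPM in control and 548 and 640 in expanded libraries, against 900 and 686 and then 1101 and 851 on day 2. How far the share of dividing cells carries the difference in Hist1h1b was not tested.

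**Figure D5:**
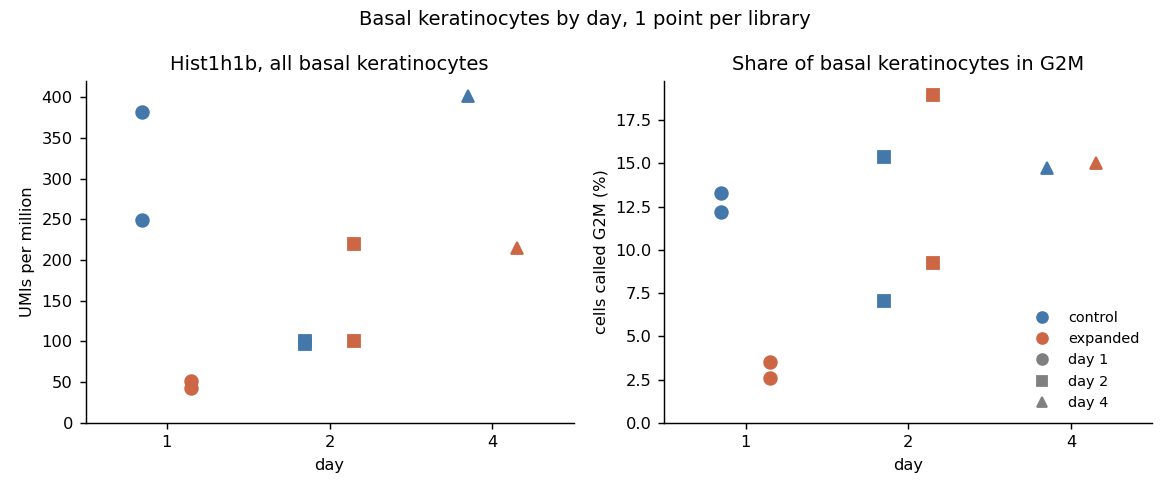
Hist1h1b in all basal keratinocytes (left, CPM) and the share of basal keratinocytes called G2M by the core lists (right, percent), by day. Points are libraries, coloured by arm. On day 1 both expanded libraries are below both control libraries in each panel.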

How the data were processed

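The deposited tables hold raw UMI counts per gene and cell, which the authors made with Cell Ranger 6.1.2 on mm10, per the submitters' processing notes. The 8 hashtag tables hold deposited counts per tag and served only to tell mice apart. Of 55174 barcodes, 47251 passed limits of 200 genes, 500 UMIs and 10% mitochondrial UMIs, and likely doublets were removed by Scrublet score at a fixed expected number per library and by mixed hashtags, which left 44805 cells. Cells were clustered without histone or cycle genes (scanpy 1.11.5, leidenalg 0.10.2). Classes were named from marker lists, and 4954 cells stayed unnamed.

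Counts were summed per class and library (at least 20 cells, 4 libraries per arm) and tested with edgeR 4.0.16 (R 4.3.3; quasi-likelihood test, TMM, low-count filter, Benjamini-Hochberg over all genes of the class, adjusted p under 0.05). S or G2M cells were compared with the rest with the library as a block, in libraries with at least 10 cells of each. DESeq2 1.42.0 was an alternative. On simulated data the test recovered 30% to 69% of genes changed by 1 log2 unit over the 10 classes and 84% to 94% of those changed by 2. Summed levels were not tested.

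Members and gene lists were chosen with earlier results of these data known, and the core phase lists and the G2M contrast after seeing them here. Named are called members by size (up to 10 per class and comparison), the variants, H1f0 and a few set members, and up to 6 list genes per class; Hist1h2be and Hist1h4d were named after their values were seen. The labels give day and round for each pair of libraries. Of 49 correlations between the paired libraries' deviations, 40 were above 0.1 (range -0.01 to 0.41). A fit with this replicate block was an alternative, beside others in the closing section.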

Additional observations from a re-analysis of the deposited data

Results flagged for a closer look

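Among 94 groups of libraries examined, 6 held a library far from the rest of its group (6.38%), and chance alone flags about 1 in 20. In NK or innate lymphoid cells the expanded library of day 2 round 2 had a core variant sum of 4789 CPM, against 6128 to 6649 in the other expanded libraries. The same library was high for replication-dependent core histones in endothelial cells (367.1 CPM against 51.44 to 129.4) and in macrophages or monocytes (133.1 against 55.21 to 70.9). In pericytes or smooth muscle cells the expanded day 4 library had a linker sum of 331.1 CPM, against 58.83 to 95.98. Hist1h2bc was lowest in the expanded day 1 round 1 library of lymphatic endothelial cells (9.238 CPM against 18.18 to 21.35) and highest in the expanded day 4 library of macrophages or monocytes (18.71 against 8.316 to 10.1).

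The effect of expansion on Hist1h1b in basal keratinocytes differed between days, with an edgeR adjusted p of 0.03898 for the interaction.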

How the results depend on the processing

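Against the 17 member calls between arms (224 tests), leaving the low-count filter out gave 49, the replicate block 31 and thinning to 2000 UMIs 5. The number of members tested can differ between these fits, and the totals have no share of all genes beside them. Omitting 1 library gave 8 to 28: 28 when the day 2 round 2 control was left out, 11 for its expanded partner, and 8 for the control or the expanded library of day 4. Outside S and G2M the 5 calls became 13 with the core phase lists (16 with the classes then large enough), 9 with the replicate block, and 2 to 8 on omitting 1 library (2 for either library of day 4, 8 for the expanded library of day 1 round 2). Calling phases without thinning left 2 classes testable and 0 calls, against 3 by the main phase call in the same classes. The cause was not tested. The block lost none of the 17 or the 5 calls.

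For S against the rest, basal keratinocytes had 27 calls with the core lists against 15. DESeq2 gave 4 in dendritic or Langerhans cells against 8, and 2 in macrophages or monocytes against 1, as did no filter. T cells had 1 with a minimum of 4 UMIs or no filter against 0. For G2M the full lists gave 26 in basal keratinocytes and 12 in T cells with either tool, against 45 and 20. The S share of basal keratinocytes was 11.06%, or 17.31%, 6.829% and 6.093% with a minimum of 2 or 4 UMIs or the core lists; that of T cells was 13.04%, or 20.42%, 7.726% and 2.349%. Of the alternative values of these summary results, 64 stayed within the limits set for no change and 30 moved; of those for single classes and named members, 419 stayed, 78 counts moved and 73 member calls were lost. Depth limits the genes near 1 CPM, and no call there is shown absent.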
